A study of Mus musculus with 8 samples.

Results

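The 10 genes described here, Dusp4, Dusp5, Dusp6, Spry2, Spry4, Spred1, Spred2, Etv4, Etv5 and Phlda1, are induced by the kinase ERK and for the most part restrain it or carry its signal to the nucleus. They were chosen by name, for their known place in the pathway and with earlier results of these data known. The table they come from holds 47729 gene identifiers and covers duct cells of the mouse liver as isolated and as they grow into organoids. All 10 were found in the table, and all 10 were among the 12900 genes expressed highly enough to be tested, at 1 RPKM or more in at least 2 of 8 libraries. RPKM, the deposited unit, divides reads by gene length and library depth, so levels can be compared between genes. The cells came from adult male C57/B6 mice with healthy livers and were sorted for EpCAM, an adhesion protein on the surface of bile duct epithelium. The groups were freshly isolated cells (2 libraries), cells in Matrigel with organoid medium for 12 h (2 libraries) or 24 h (1 library), and organoids after 6 days (2 libraries). A further library is titled 48h, but its remaining labels give 24 h, so it is called the 48h-titled library and forms a group of its own. All cultured groups share the matrix and the medium, whose composition the labels do not list, and no label names an agent aimed at ERK. The labels do not tie replicates to animals, and p-values therefore describe no more than the variation among these 8 libraries, some of which may be technical.

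ERK is the last kinase of a cascade that runs from growth factor receptors through Ras, RAF and MEK. When it is active it switches on genes that feed back on the cascade. Dual-specificity phosphatases of the Dusp family remove the activating phosphates from ERK, whereas Sprouty and Spred proteins act further up, on receptors, Ras and RAF. Etv4 and Etv5 are ETS transcription factors of the PEA3 subfamily, which carry part of the response to FGF and EGF receptors, and Phlda1 is a small protein with a pleckstrin homology domain that is also induced by ERK. Levels of these messages are widely used as a readout of the pathway, and the media used for mouse liver duct organoids usually supply EGF together with HGF and FGF family ligands.

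The results below turn on a contrast between Dusp5 and Dusp6, close relatives that both act on ERK, so the promoters of this pair are shown. RefSeq promoter windows on GRCm38.p6, which run from 250 bases before to 50 bases after the start site, were at hand for 6 of the 10 genes in 7 windows: Dusp5, Dusp6, Spry2, Spred1, Spred2 and Etv5. The Dusp5 window is chr19:53528895-53529194 and the Dusp6 window chr10:99262981-99263280, both on the plus strand, written 5′ to 3′. Capitals mark CArG boxes, the sites to which serum response factor binds.
Dusp5: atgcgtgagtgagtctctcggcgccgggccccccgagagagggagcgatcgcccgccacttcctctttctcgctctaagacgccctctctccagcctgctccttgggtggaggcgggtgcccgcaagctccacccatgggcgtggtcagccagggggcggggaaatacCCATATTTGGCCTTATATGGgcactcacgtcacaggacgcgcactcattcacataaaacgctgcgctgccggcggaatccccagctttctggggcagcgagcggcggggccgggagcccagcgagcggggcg
Dusp6: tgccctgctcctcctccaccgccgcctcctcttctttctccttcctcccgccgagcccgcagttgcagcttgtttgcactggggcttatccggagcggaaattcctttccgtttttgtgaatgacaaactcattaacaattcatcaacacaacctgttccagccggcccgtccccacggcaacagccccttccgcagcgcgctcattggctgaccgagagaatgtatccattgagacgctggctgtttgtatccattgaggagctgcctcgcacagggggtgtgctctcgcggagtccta
The Dusp5 window holds 2 CArG boxes side by side, beginning at −82 and −72 relative to the start site. A CArG box was found in 1.63% of the 32851 windows of the table, and 2 or more in 0.0183% of them (6 windows). Both strands were searched, and the box reads as a box on either strand, so each was counted once. Besides Dusp5, the windows with a pair belong to Srf, Ceacam11, Gm33934 and Gm39572. Srf encodes serum response factor itself and was singled out here after its values were seen. It stood at 12.8 and 19.2 RPKM in fresh cells, 1.40 and 2.39 at 12 h, 0.534 at 24 h, 4.94 in the 48h-titled library and 0.901 and 3.55 in the organoids. As for Dusp5, its highest values were those of the fresh libraries. The lowest value of Srf was that at 24 h, whereas the lowest of Dusp5 was the 1.87 RPKM of organoid replicate 1. A link between Srf and Dusp5 was not tested. The other 6 windows held none of the motifs searched, which were the CArG box, the ETS context CCGGAAGT (in 3.89% of all windows), the AP-1 site TGANTCA (7.81%) and the CRE TGACGTCA (1.79%). These are matches of letters and were not tested as binding sites.

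The libraries corresponded to between 13833143 and 28468920 effective reads. Epcam stood between 513 and 1175 RPKM in all 8 libraries, and the leukocyte marker Ptprc at 0.0143 RPKM in fresh replicate 1 and at 0 in the other 7. The 24 h library stood apart from the rest. Among genes averaging 5 RPKM or more in the other libraries, 10.02% were under 0.2 RPKM there, against 0.421% to 3.10% in the other 7. Organoid replicate 1 had the largest summed RPKM, 446034 against 357129 to 369701, and 68.0% of the genes tested were lower in it than in organoid replicate 2. Among the 10 genes 8 were lower in that replicate.

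**Figure D1:**
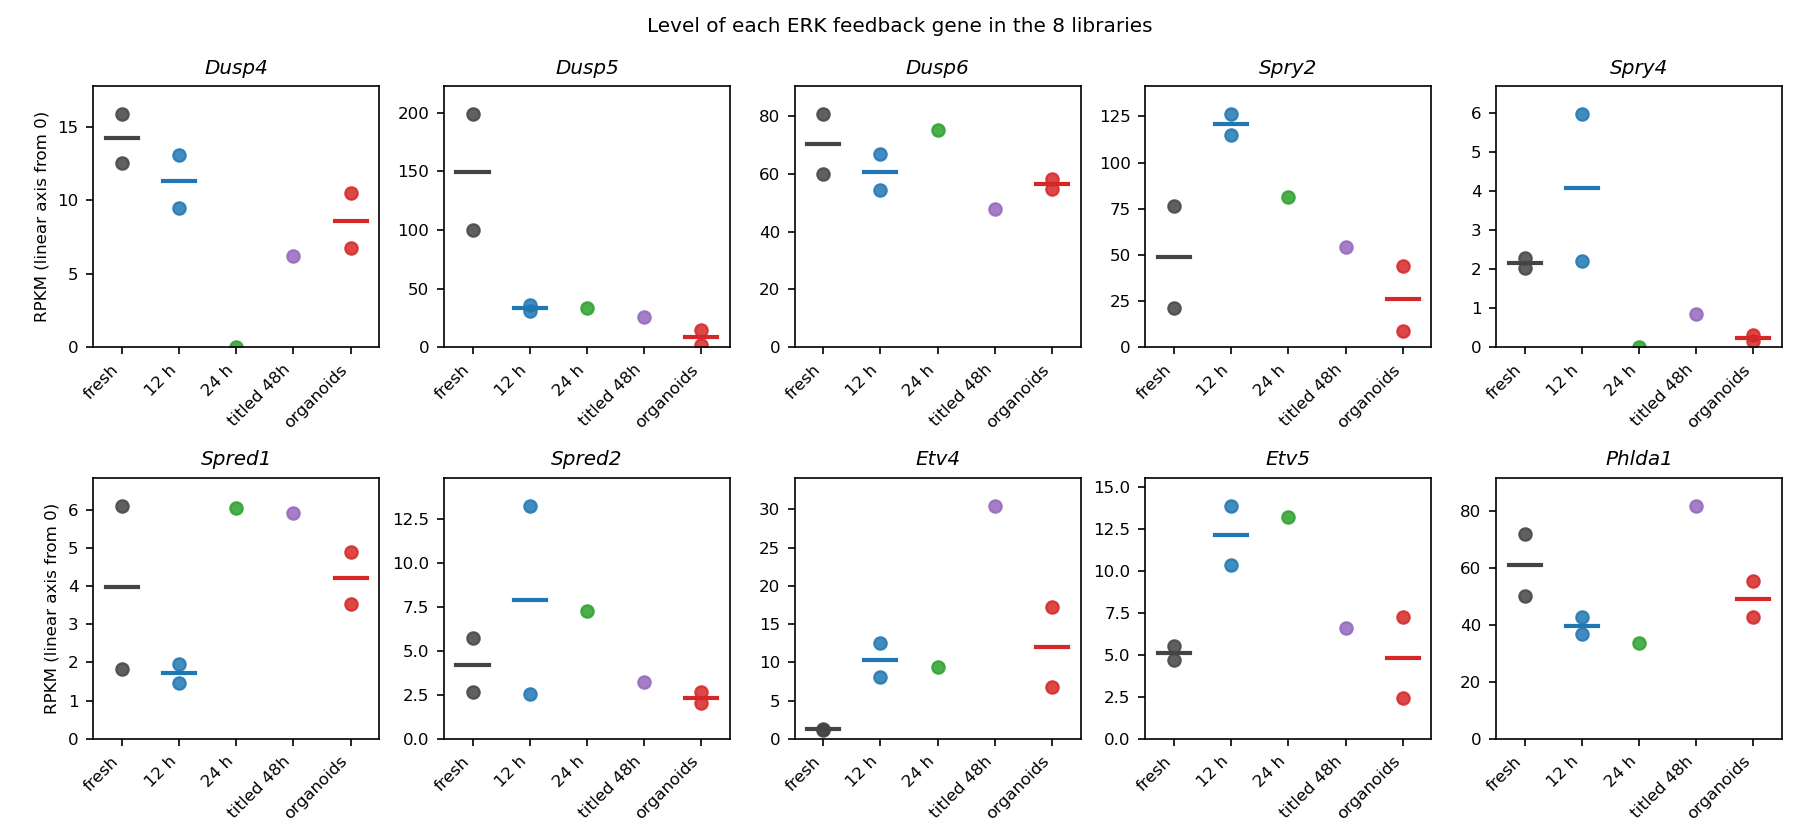
RPKM of each of the 10 genes (vertical axis, linear from 0, its own scale in each panel) by group (horizontal axis). Points are libraries and bars the mean of groups with 2 libraries. Dusp5 is highest in the fresh cells, Etv4 lowest there, and Dusp6 stays between 47.8 and 80.6 RPKM.

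The 10 genes did not move as a set. Dusp5, which led in fresh cells, fell 17.6-fold to the organoids, while Etv4, the lowest of the 10 in fresh cells, rose 9.67-fold. The sizes of both depended on single libraries. The Dusp5 fold was 9.92 without organoid replicate 1, 79.9 without organoid replicate 2 and 11.8 without fresh replicate 2, and the Etv4 fold was 13.9 without organoid replicate 1 and 5.47 without organoid replicate 2. The summed level of the 10 was 285 and 436 RPKM in fresh cells, 309 and 294 at 12 h, 259 at 24 h, 263 in the 48h-titled library and 132 and 214 in the organoids. The highest of the 10 was Dusp5 in both fresh libraries, Spry2 in both 12 h libraries and the 24 h library, Phlda1 in the 48h-titled library and Dusp6 in both organoid libraries. Dusp5 made up 35.1% and 45.6% of the sum in fresh cells, 11.6% and 10.5% at 12 h, and 1.42% and 7.06% in organoids. The share of Dusp6 was 21.0% and 18.5% in fresh cells and 41.6% and 27.3% in organoids. In such bulk libraries, fewer cells of a type and less RNA per cell cannot be told apart.

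**Figure D2:**
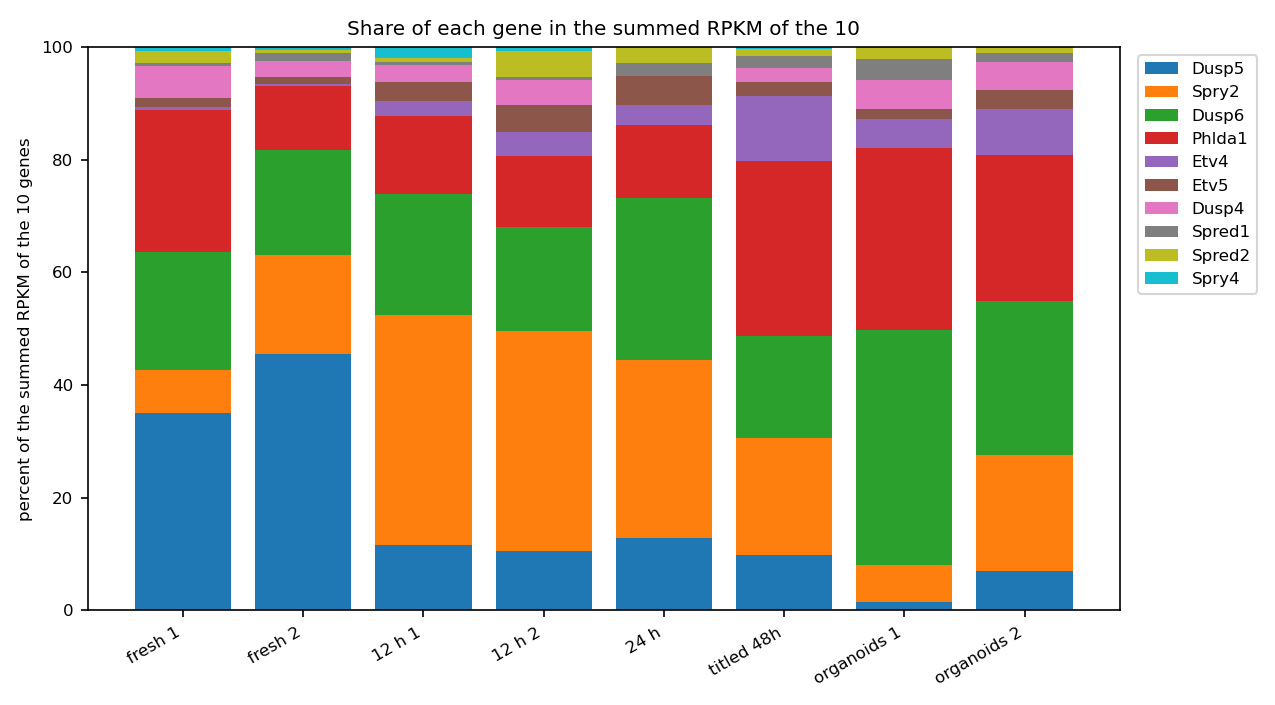
Share of each gene (vertical axis, percent of the summed RPKM of the 10) in each library (horizontal axis), stacked to 100. The Dusp5 share is above 35% in the fresh libraries and at most 12.9% in every cultured library.

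Among the phosphatases, Dusp5 encodes the ERK-selective enzyme of the nucleus (chromosome 19:53529109-53542431 on GRCm38, plus strand, protein-coding). It stood at 100.1 and 199 RPKM in fresh cells, 35.9 and 30.8 at 12 h, 33.5 at 24 h, 26.1 in the 48h-titled library and 1.87 and 15.1 in the organoids. Both fresh libraries were above every cultured library, the organoids were below all others, and the 3 groups of 12 h, 24 h and titled 48h lay close together. These values rest on 14005 reads in fresh replicate 2 and on 64 and 754 reads in the organoids. The group means were 149.5 ± 69.9 RPKM in fresh cells, 33.4 ± 3.57 at 12 h and 8.48 ± 9.34 in organoids (here and below ± is the SD over n = 2 libraries). On the log2(RPKM + 1) scale Dusp5 fell by 4.39 from fresh cells to organoids (SE 0.80, limma with Benjamini-Hochberg adjustment, adjusted p = 0.0243), and 0.558% of the genes tested had a lower value. At 12 h the difference was −2.05 (SE 0.80, limma adjusted p = 0.159) and from 12 h to organoids −2.33 (limma adjusted p = 0.186), and neither passed. With only the groups compared in the model, the 12 h difference did pass (0.0392). The organoid call ended without fresh replicate 1, fresh replicate 2 or organoid replicate 1, where the spread of the single library that remained was taken from the other groups. Leaving out a library can end every call among all genes tested, so such a loss need not be particular to Dusp5. With each replicated library left out in turn, the change ran from −5.63 to −3.14. The organoid call also ended with no filter on low values (limma adjusted p = 0.0979). Over the other settings listed below, its adjusted p stayed between 0.0124 and 0.0379. GENCODE M21 places an antisense gene over Dusp5, and the sources used here do not say whether the counting used strand.

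Several groups of genes moved beside Dusp5. A list of 12 early genes of tissue dissociation, such as Fos and Atf3, summed to 2460 and 2935 RPKM in fresh cells. In the cultured libraries it summed to between 321 and 893. Of the 12, 6 were lower at 12 h and 8 in organoids. Over all genes tested, 3.72% were lower at 12 h, and 4.94% were lower and 5.15% higher in organoids against fresh cells. Hepatocyte markers (12 genes) summed to 1052 and 1184 RPKM in fresh cells and to between 8.94 and 361 in culture, with 8 and 9 of the 10 tested lower. Ductal markers (12 genes) summed to between 20709 and 23601 RPKM in fresh cells and between 9822 and 16967 in culture. Of the 11 tested, 0 were higher and 0 lower at 12 h, and 2 were higher and 2 lower in organoids. A list of 10 immune markers summed to 691 and 737 RPKM in fresh cells and between 78.5 and 222 in culture. Most of it came from Cd14, while Cd3e was at 0 throughout. Of the 4 tested, 2 were lower at 12 h and 1 in organoids. Endothelial and mesenchymal markers summed to at most 4.08 and 12.8 RPKM in any library. Of 6 mesothelial markers 3 were tested. Gpm6a and Nkain4 fell at 12 h and in organoids, to at most 0.0148 RPKM and 0.233 RPKM from 22.6 ± 8.54 and 6.86 ± 1.44 in fresh cells. In the 48h-titled library Gpm6a stood at 5.78 RPKM. Msln, by contrast, rose in organoids, from 25.3 ± 5.62 to 482 ± 9.39 RPKM. The part of these genes, or of the cells that carry them, in the Dusp5 result was not tested.

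Dusp6, the ERK-selective phosphatase of the cytoplasm (chromosome 10:99263231-99267489, plus strand), was the steadiest of the 10. Its values were 60.0 and 80.6 RPKM in fresh cells, 66.8 and 54.4 at 12 h, 74.9 at 24 h, 47.8 in the 48h-titled library and 54.8 and 58.3 in organoids. The highest library was 1.69-fold above the lowest, and the fresh and 12 h libraries overlapped. Both organoid libraries were below both fresh libraries. The fitted difference from fresh cells was −0.20 at 12 h (95% interval −0.99 to 0.58) and −0.29 in organoids (−1.08 to 0.49). On this scale a rise of 2-fold lies outside both intervals. A fall of 2-fold lies within the organoid interval and only just outside that at 12 h. The 12 h difference was −0.57 (SE 0.34) after centring and −0.49 (SE 0.31) after quantile normalization, where such a fall is not excluded. Dusp6 stood at 0.599 and 0.405 times the level of Dusp5 in the fresh libraries, at between 1.76 and 2.24 times in the 4 libraries from 12 h to titled 48h, and at 29.3 and 3.87 times in organoids.

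Dusp4, a nuclear phosphatase that acts on ERK and on the stress kinases (chromosome 8:34807297-34819894, plus strand), stood at 15.9 and 12.6 RPKM in fresh cells, 9.50 and 13.1 at 12 h and 6.75 and 10.5 in organoids. The organoid libraries were below both fresh libraries, but the difference of −0.68 (95% interval −1.73 to 0.37, limma adjusted p = 0.351) did not pass. In the 24 h library Dusp4 was at 0.0190 RPKM, which corresponds to 1 read, against 374 reads in the 48h-titled library and between 256 and 979 in the others. The fresh mean was 747 times that value, with an exact Poisson interval for the single read of 134 to 29523 times, which covers counting error only. This is the library in which 10.02% of otherwise expressed genes were near 0, and the part of that loss in the Dusp4 value was not tested.

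Of the Sprouty genes, Spry2 encodes an inhibitor of receptor signalling to Ras and RAF (chromosome 14:105891947-105896819, minus strand). It stood at 21.3 and 76.6 RPKM in fresh cells, 126.3 and 115 at 12 h, 81.6 at 24 h, 54.4 in the 48h-titled library and 8.84 and 44.0 in organoids. Both 12 h libraries were above all others, the 24 h library came next, and both organoid libraries were below the 48h-titled library. The fresh replicates differed 3.59-fold and the organoid replicates 4.97-fold. The 12 h mean of 121 ± 7.91 RPKM was 2.46-fold above the fresh mean of 49.0 ± 39.1, a log2 difference of 1.55 (95% interval −0.44 to 3.54, limma adjusted p = 0.289). From 12 h to the organoids (26.4 ± 24.8 RPKM) the log2 difference was −2.53 (95% interval −4.52 to −0.54, limma adjusted p = 0.173). Neither passed, although 0.837% of the genes tested had a lower value in the second comparison.

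Spry4, a relative of Spry2 (chromosome 18:38586247-38601415, minus strand), was the lowest of the 10 in the 4 libraries after 12 h. Its levels were 2.27 and 2.03 RPKM in fresh cells, 5.96 and 2.20 at 12 h, 0.856 in the 48h-titled library and 0.158 and 0.313 in organoids, and it was listed at 0 at 24 h. No limit is given for that 0, since the gene length behind the deposited values of Spry4 differs from that in GENCODE M21. Both organoid libraries were below all libraries but that one, and their mean of 0.235 ± 0.110 RPKM was 9.15-fold below fresh cells and 17.4-fold below 12 h. The log2 differences were −1.35 (SE 0.47, limma adjusted p = 0.115) from fresh cells and −1.94 (SE 0.47, limma adjusted p = 0.0917) from 12 h, on a scale that compresses levels near 1 RPKM, and neither passed. With only the groups compared in the model, the first of these had an adjusted p of 0.0219, and without 12 h replicate 1 or 2 it had 0.0372 and 0.0437. Over all its alternatives the adjusted p ran up to 0.477.

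The Spred genes, which bring the Ras inactivator neurofibromin to the membrane, were low throughout. Spred1 (chromosome 2:117121374-117182279) stood at 1.84 and 6.11 RPKM in fresh cells, 1.47 and 1.97 at 12 h, 6.03 at 24 h, 5.92 in the 48h-titled library and 4.90 and 3.54 in organoids. Spred2 (chromosome 11:19924375-20024026) stood at 5.73 and 2.65 RPKM in fresh cells, 2.54 and 13.3 at 12 h, 7.26 at 24 h, 3.24 in the 48h-titled library and 2.64 and 2.01 in organoids. Spred1 replicates differed 3.33-fold in fresh cells and Spred2 replicates 5.22-fold at 12 h. The fresh, 12 h and organoid means of each gene lay within that spread of one another, and limma adjusted p-values for the pair ran from 0.418 to 0.839 over the 3 comparisons.

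Etv4 (chromosome 11:101769742-101785371, minus strand) and Etv5 (chromosome 16:22381309-22439719, minus strand) parted from each other in culture. Etv4 stood at 1.29 and 1.19 RPKM in fresh cells, 8.04 and 12.5 at 12 h, 9.41 at 24 h, 30.5 in the 48h-titled library and 6.78 and 17.2 in organoids. Every cultured library was above both fresh libraries, which held 61 and 105 reads against 291 to 2072 in culture. The means were 1.24 ± 0.0707 RPKM in fresh cells, 10.3 ± 3.16 at 12 h and 12.0 ± 7.35 in organoids, and the 48h-titled library was 24.6-fold above fresh cells. The 12 h and organoid libraries overlapped. In organoids the rise was 2.41 on the log2(RPKM + 1) scale (SE 0.53, limma adjusted p = 0.0399). At 12 h the difference was of like size, 2.30 (SE 0.53, limma adjusted p = 0.0527), and did not pass.

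The Etv4 calls sat close to the threshold. The organoid call ended at a pseudocount of 5 (limma adjusted p = 0.0738) and with no filter on low values (0.0953). It also ended with the 48h-titled library counted as 24 h (0.0879) and with libraries scaled to the same RPKM sum (0.0668). The same held without fresh replicate 1 or 2 and without organoid replicate 1 or 2, where a single library remained in a group. The Dusp5 call, by contrast, did not end without organoid replicate 2. With each replicated library left out in turn, the rise in organoids ran from 1.80 to 3.02. Conversely, the 12 h difference passed at a pseudocount of 0.1 (0.042), with genes under a mean of 5 RPKM left out (0.0433), after centring (0.0423) or quantile normalization (0.0321), with only the groups compared (0.0362) and without organoid replicate 1 or 2 (0.0427 and 0.0446). Its direction was upwards in all of these runs.

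Etv5 stood at 4.73 and 5.55 RPKM in fresh cells, 10.4 and 13.9 at 12 h, 13.2 at 24 h, 6.62 in the 48h-titled library and 2.45 and 7.24 in organoids. The 12 h and 24 h libraries were above the rest, and the organoid libraries lay on either side of the fresh ones. The log2 difference was 1.09 at 12 h (95% interval −0.18 to 2.36, limma adjusted p = 0.247), −0.20 in organoids against fresh cells (−1.47 to 1.07, adjusted p = 0.834) and −1.29 in organoids against 12 h (−2.56 to −0.02, adjusted p = 0.255). As a ratio of levels within a library, Etv4 was at 0.272 and 0.214 of Etv5 in fresh cells, 0.775 and 0.899 at 12 h, 0.712 at 24 h, 4.60 in the 48h-titled library and 2.77 and 2.37 in organoids. Etv5 was the higher of the pair in the fresh, 12 h and 24 h libraries, and Etv4 in the 48h-titled library and the organoids. With 2 libraries a group this ratio was not tested. The third PEA3 factor, Etv1, was at most 0.246 RPKM and was not among the genes tested.

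Phlda1 (chromosome 10:111506286-111508645, plus strand) was among the 4 highest of the 10 genes in every library. It stood at 71.9 and 49.9 RPKM in fresh cells, 42.6 and 36.8 at 12 h, 33.4 at 24 h, 81.8 in the 48h-titled library and 42.6 and 55.4 in organoids. The highest library was 2.45-fold above the lowest. The log2 differences from fresh cells were −0.59 at 12 h (95% interval −1.42 to 0.25) and −0.30 in organoids (−1.13 to 0.54), with limma adjusted p-values of 0.337 and 0.613. A non-coding gene annotated on the opposite strand over Phlda1 was at most 0.431 RPKM.

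**Figure D3:**
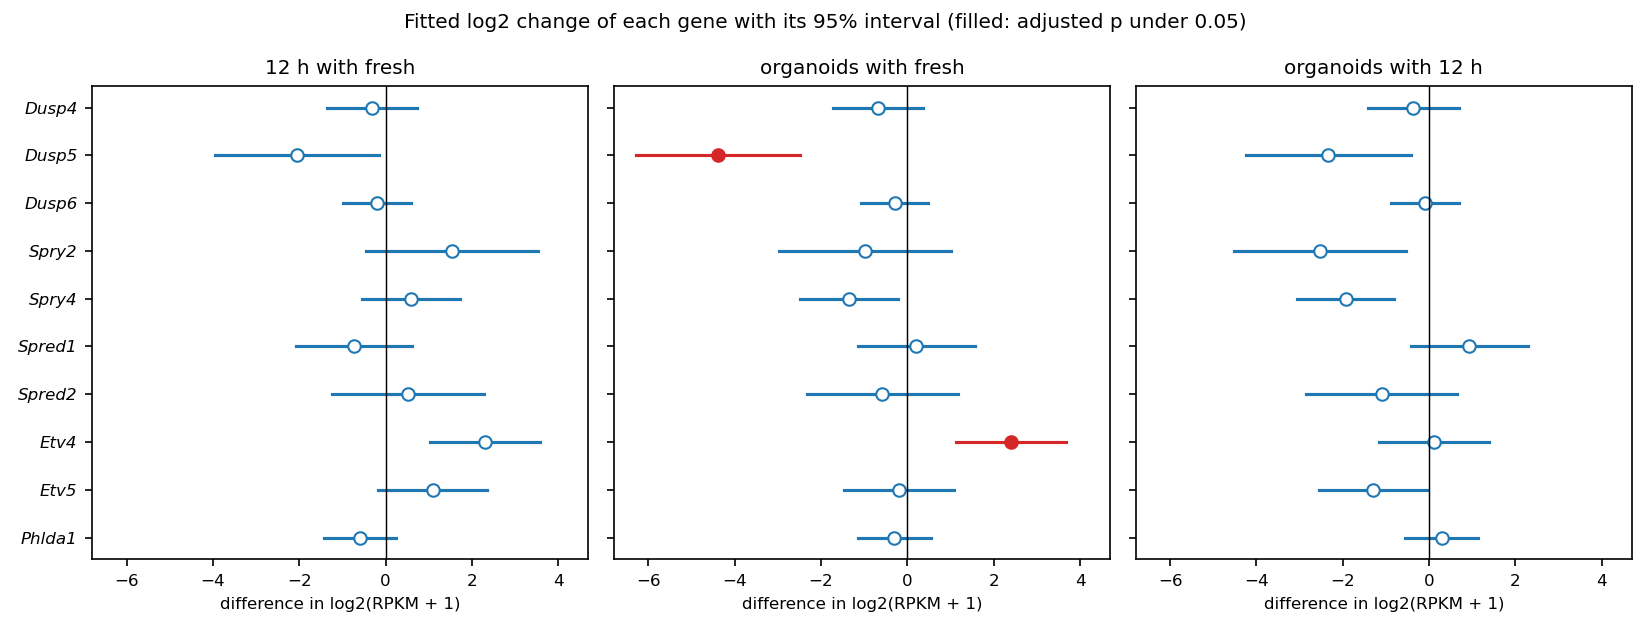
Fitted difference in log2(RPKM + 1) (horizontal axis) of each gene (vertical axis) in 3 comparisons, with points for the estimate and lines for the 95% interval of the single gene, not adjusted for the number of genes. Filled red marks an adjusted p under 0.05, reached by Dusp5 and Etv4 in organoids with fresh cells.

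Counted over the 10 genes, 0 passed at 12 h against fresh cells by limma at an adjusted p of 0.05, beside 3.09% of the 12900 genes tested that were higher and 3.72% that were lower. At an unadjusted p of 0.05 there were 2, Dusp5 and Etv4, beside 27.1% of all genes, and the groups did not overlap for 5 of 10, beside 62.2%. In organoids against fresh cells 2 of 10 passed, 1 higher and 1 lower, beside 5.15% of all genes higher and 4.94% lower. At an unadjusted p there were 3, these and Spry4, beside 29.5%, and the groups did not overlap for 6 of 10, beside 64.7%. In organoids against 12 h 0 of 10 passed, beside 1.38% higher and 0.620% lower. At an unadjusted p there were 4 (Dusp5, Spry2, Spry4 and Etv5), beside 19.1%, and the groups did not overlap for 5 of 10, beside 44.9%. No other tool was run. These comparisons share libraries and are not independent of one another.

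The median log2 change of the 10 was 0.16 at 12 h, −0.44 in organoids against fresh cells and −0.73 in organoids against 12 h. Over all genes tested it was 0.24, 0.17 and −0.09. Centring the libraries moved the median of all genes by −0.37, −0.15 and 0.22 in these comparisons, and quantile normalization moved it by −0.13 at 12 h. The direction of each of the 10 genes was the same under centring, quantile normalization and scaling to the same RPKM sum, except Dusp6 after centring and Etv4 after scaling to the sum, both in organoids against 12 h, where their differences were near 0.

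**Figure D4:**
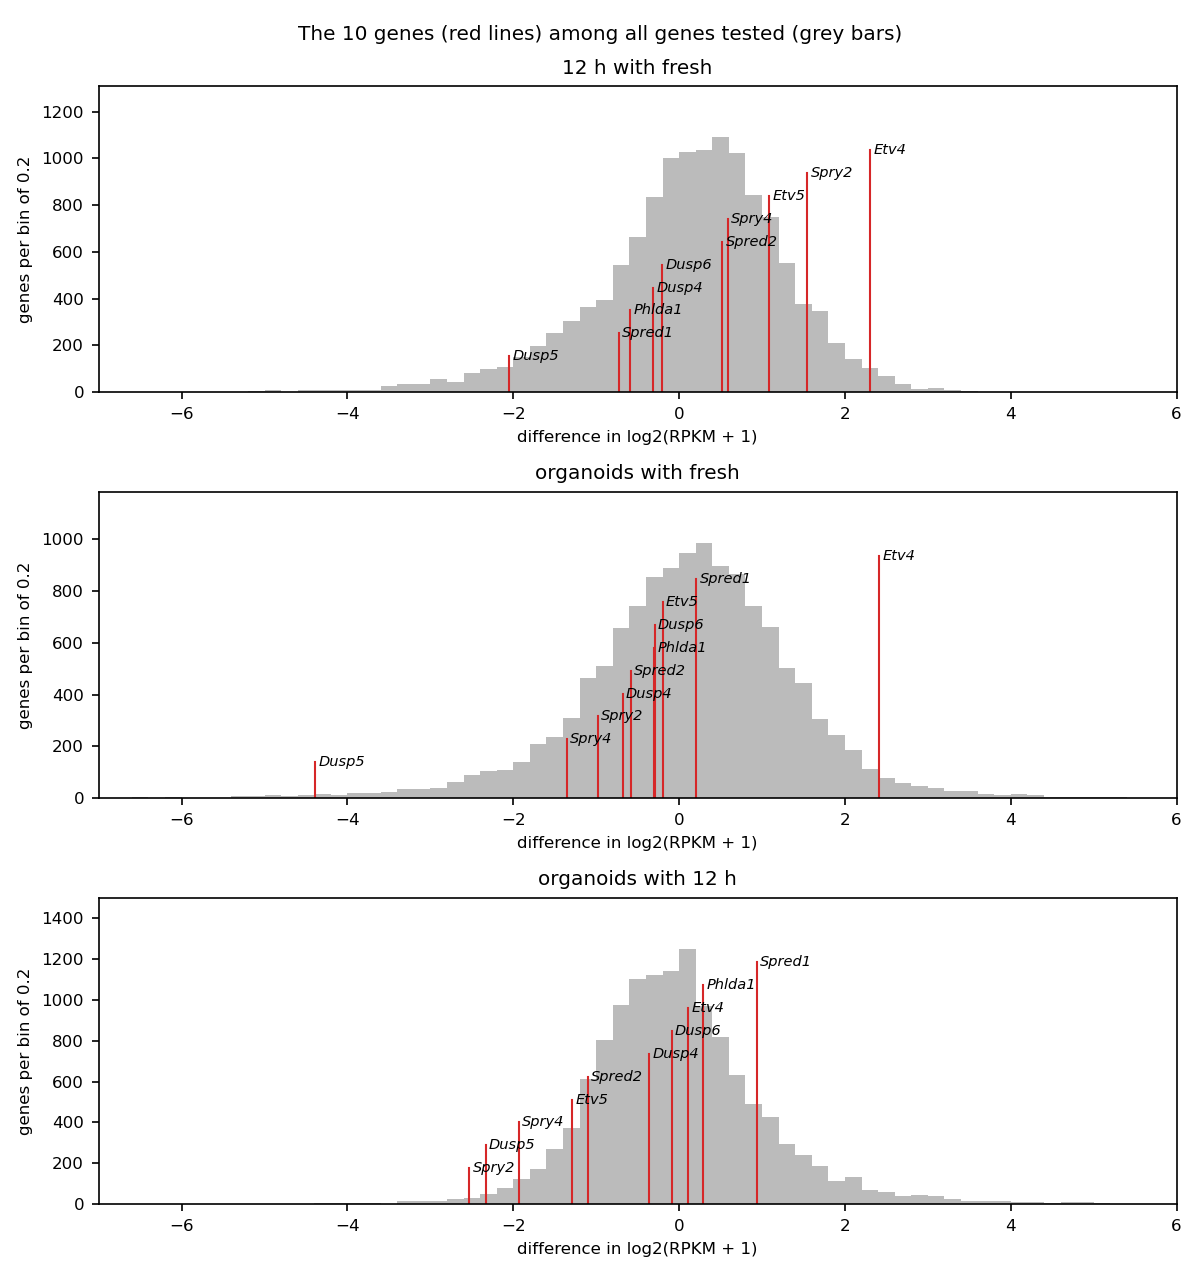
Difference in log2(RPKM + 1) (horizontal axis) of the 12900 genes tested (grey bars, number of genes per bin of 0.2 on the vertical axis) with the 10 genes as labelled red lines, whose heights carry no value. The 10 spread over both sides of 0, with Dusp5 far to the left and Etv4 to the right in organoids with fresh cells.

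Other genes of the pathway were counted in the same way. Their lists were chosen for their role, with earlier results of these data known. Over all genes tested, 3.09% were higher and 3.72% lower at 12 h, and 5.15% and 4.94% in organoids against fresh cells. Of 13 other feedback inhibitors tested, 1 rose and 1 fell at 12 h (median log2 change 0.03), and 1 fell in organoids (median −0.32). The gene that fell in both was Errfi1, which binds and blocks the EGF receptor, at 745 ± 308 RPKM in fresh cells, 73.4 ± 4.86 at 12 h and 41.6 ± 18.7 in organoids. Dusp7, a close relative of Dusp6, rose at 12 h, from 2.27 ± 0.0112 to 18.7 ± 0.599 RPKM. It stood at 5.50 ± 0.224 RPKM in organoids. Spry1 did not pass, at 4.33 ± 2.36, 2.39 ± 1.15 and 3.16 ± 0.177 RPKM in fresh cells, 12 h and organoids.

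Of 15 other ERK target genes tested, 1 rose and 2 fell at 12 h (median −1.11), and 1 rose and 6 fell in organoids (median −1.88). The cytokine gene Lif fell in both, from 110 ± 34.4 to 5.39 ± 1.79 RPKM at 12 h and 5.46 ± 5.44 in organoids. Plaur, the urokinase receptor, fell to 75.7 ± 77.6 RPKM in organoids from 1112 ± 99.5, and the transcription factor genes Fosl1 and Egr1 fell as well, with log2 differences of −7.07 and −5.12. Hbegf, an EGF receptor ligand, fell in both and Il11, a cytokine, rose at 12 h, whereas Ereg, another such ligand, rose in organoids from 0.0340 ± 0.0481 to 2.49 ± 0.577 RPKM. The cyclin gene Ccnd1 stood at 52.1 ± 0.246, 44.6 ± 3.40 and 138 ± 86.8 RPKM in fresh cells, 12 h and organoids and did not pass, nor did the ephrin receptor genes Epha2 (78.8 ± 32.4, 31.1 ± 10.98 and 25.02 ± 22.1 RPKM) and Epha4 (1.34 ± 0.619, 0.696 ± 0.809 and 6.43 ± 1.74 RPKM).

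Of a list of 6 further phosphatases, here called the stress phosphatases, 1 fell at 12 h and 3 in organoids (medians −1.23 and −2.22). Dusp1 stood at 559 ± 27.3 RPKM in fresh cells, 122 ± 70.4 at 12 h and 49.0 ± 2.26 in organoids and fell in both. Dusp8 and Dusp10 fell in organoids, to 0.610 ± 0.401 and 5.92 ± 2.69 RPKM. Of 11 growth factor receptors, 1 fell at 12 h and 2 in organoids (medians −0.79 and −0.78). Fgfr1 fell in organoids from 44.1 ± 15.8 to 0.476 ± 0.636 RPKM, and Erbb4, at 2.92 ± 0.259 RPKM in fresh cells, fell at 12 h to 0.0270 and 0 and was listed at 0 in both organoid libraries. Of 23 genes of the Ras-ERK cascade itself, 0 passed in any of the 3 comparisons, with 5, 5 and 2 at an unadjusted p of 0.05 and medians of −0.05, −0.06 and −0.38. Under other settings up to 1 cascade gene was higher and 1 lower at 12 h, and up to 2 were lower in organoids against fresh cells. In organoids against 12 h, 0 of 13 other feedback inhibitors and 0 of 6 stress phosphatases passed (4 and 2 at an unadjusted p, medians −0.76 and −0.88), 1 of 11 receptors, Fgfr1, fell (median −0.02) and of 15 targets 1 rose and 2 fell (median −0.58). Over all genes tested, 1.38% were higher and 0.620% lower in that comparison, with a median of −0.09.

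**Figure D5:**
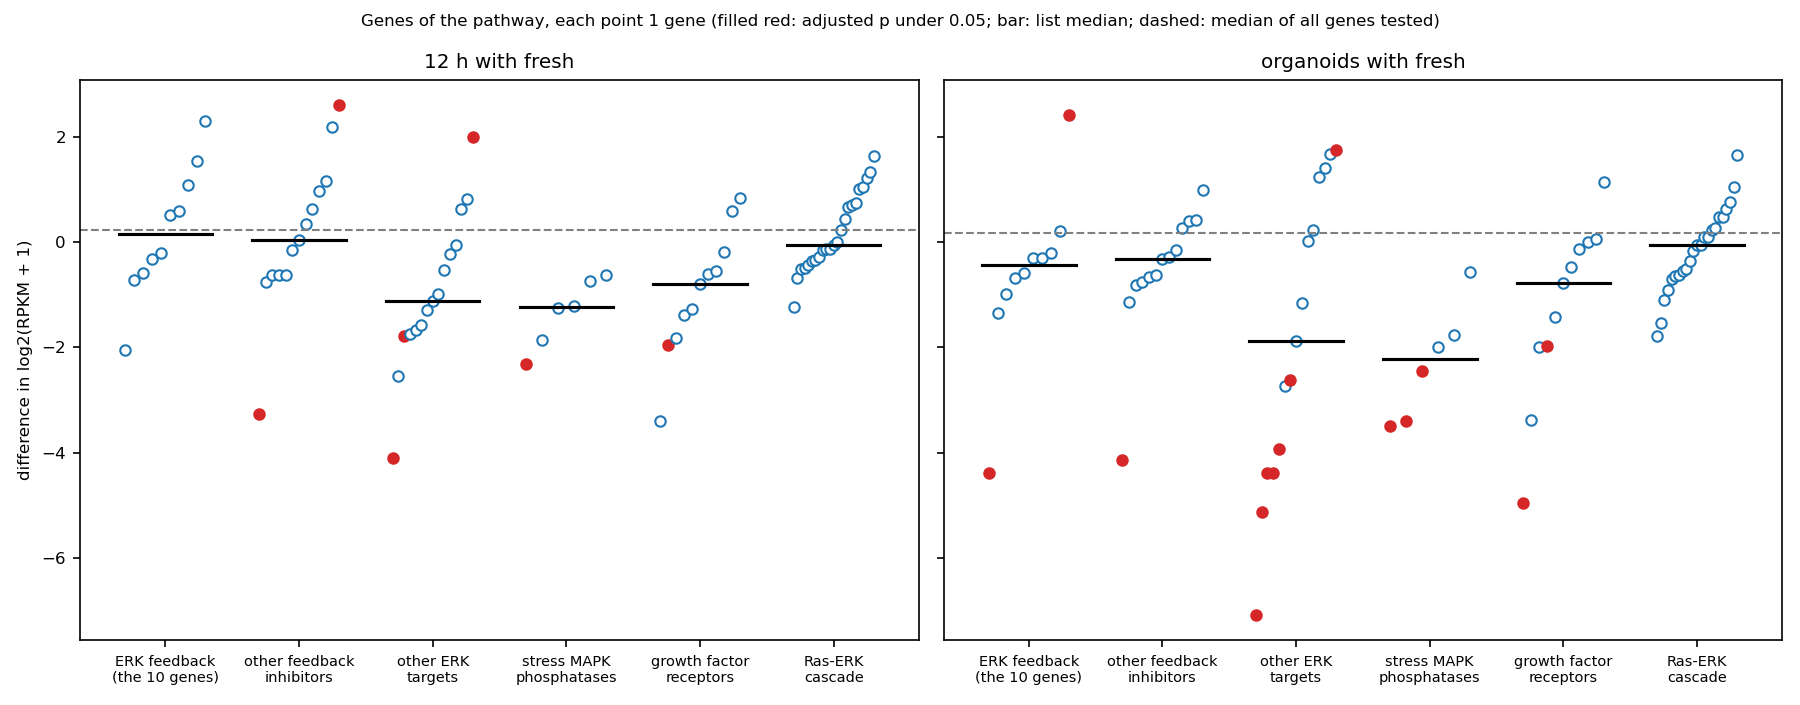
Difference in log2(RPKM + 1) (vertical axis) of each gene in 6 lists (horizontal axis) at 12 h (left) and in organoids (right) against fresh cells. Bars are list medians and the dashed line the median of all genes tested. The targets and the stress phosphatases have medians of −1.88 and −2.22 in organoids, against −0.06 for the cascade.

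To place each pattern among other genes, values were centred on each gene's own mean over the 8 libraries and compared by the root mean square difference in log2(RPKM + 1) with 6928 protein-coding genes of at least 5 RPKM on average. Dusp5 was most like Plaur (0.26) and the integrin gene Itga5 (0.32). Etv5 was most like Smarcd1 (0.12), a chromatin remodelling subunit, and the chaperone gene Dnajc7 (0.14). Etv4 lay nearest to Ccdc51 and Lpcat1 (0.33 each), and Spry2 to Mybbp1a (0.45) and Gpatch4 (0.46). The genes nearest to Dusp6 were Cacfd1 (0.13) and Wdr45b (0.15), and those nearest to Phlda1 were Ctsl (0.19) and Lgals8 (0.21). Dusp4 lay nearest to Adprm (0.20), itself listed at 0 in the 24 h library, and Rnf25 (0.21). Spry4 was nearest to Ginm1 (0.33) and Pwp1 (0.36), Spred1 to Crbn (0.31) and Tceal8 (0.37), and Spred2 to Inafm1 (0.33) and Fam220a (0.37). Among the 10 themselves, the nearest pair was Dusp6 and Phlda1 (0.56) and the farthest Dusp5 and Etv4 (2.61), so each of the 10 had a gene outside the set nearer to it than any inside. A search among so many genes favours such near matches, and the values describe these 8 libraries only.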

How the data were processed

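The authors deposited 1 table of RPKM values, with a row for each of 47729 Ensembl identifiers and a column for each of 8 libraries. Per the labels' protocols, libraries were made by SmartSeq2 and NexteraXT tagmentation, and the submitters' processing notes name the build GRCm38 and the tool edgeR. The sources used here name no aligner, counter, annotation release, filter or strand setting. Symbols and positions came from GENCODE M21, which matched 47224 identifiers and missed 505. Between 88.2% and 91.1% of values of up to 20 reads were whole multiples, within 0.01, of what 1 read is worth at the GENCODE length, which gave the effective reads of each library. Read numbers came out whole within 0.05 in every library for all of the 10 genes except Dusp6, Spry2 and Spry4, for which none are quoted. Intervals and floors cover counting error only, as the reads carry no molecular identifiers.

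Tests used log2(RPKM + 1). The linear model of limma (3.58.1, R 4.3.3) had 1 coefficient for each of the 5 groups, with eBayes and a mean trend, with 3 residual and 3.65 prior degrees of freedom. It was fitted to the 12900 genes at 1 RPKM or more in at least 2 libraries, with two-sided p-values adjusted by Benjamini-Hochberg over all of them and a threshold of 0.05. A fold on this scale understates changes of low genes, and other folds are ratios of mean RPKM. The 24 h library and the 48h-titled library were described without a test. The procedure was run on simulated data with independent noise, in which changes were added only to well expressed genes and only between organoids and fresh cells. Such data do not cover changes of low genes, the near-0 values of the 24 h library or the uneven organoid replicates.

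The genes and lists were chosen with earlier results of these data known. Named are the 10 genes and, for each comparison separately, up to 4 genes of each pathway list that passed in it, by size of change. Also named are 6 genes whatever their result (Ccnd1, Epha2, Epha4, Spry1, Etv1 and Dusp1) and the 2 genes nearest in pattern to each of the 10. Alternatives were other pseudocounts, filters and scalings, other groups in the model, the replicate number as a block and each replicated library left out. Removal of both lone libraries and scaling to the RPKM sum were chosen after seeing the data.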

Additional observations from a re-analysis of the deposited data

How the results depend on the processing

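Of the 10 genes, 1 passed at 12 h with a pseudocount of 0.1, with genes under a mean of 5 RPKM left out, after centring and after quantile normalization, and 2 with only the groups compared. Over all genes, 916, 600, 1139, 1081 and 1790 passed in these settings, in the same order. In organoids against fresh cells 1 passed at a pseudocount of 5, with the 48h-titled library counted as 24 h and after scaling to the same RPKM sum, and 0 with no filter (3 at an unadjusted p). Over all genes, 1156 passed at a pseudocount of 5, and 411 were higher and 560 lower after scaling to the sum. The all-gene counts of the other settings are given below. Without the 24 h library and the 48h-titled library the counts were 0, 2 and 0, as with all libraries. Leaving out a replicated library gave 0 to 1 at 12 h and 0 to 3 in organoids.

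Over all genes, 878 passed at 12 h (398 higher, 480 lower), 1301 in organoids against fresh cells (664 and 637) and 258 in organoids against 12 h (178 and 80). With no filter these became 423, 740 and 0 (3379 at an unadjusted p), with only the groups compared 1790, 2044 and 14, and with the 48h-titled library counted as 24 h 461, 762 and 8. In organoids against 12 h the count was 418 at a pseudocount of 0.1, 141 at one of 5, 151 with genes under a mean of 5 RPKM left out and 145 after scaling to the sum. Centring gave 300 higher and 839 lower at 12 h, 556 and 836 in organoids against fresh cells, and 283 and 74 in organoids against 12 h. Leaving out a library gave 0 to 1176, 0 to 1646 and 0 to 193. In organoids against 12 h the log2 difference of Dusp6 was 0.13 after centring and that of Etv4 −0.0035 after scaling to the sum. With a library left out, the log2 difference crossed 0 for Dusp6 (−0.41 to 0.0077) and Spred2 (−0.49 to 1.52) at 12 h. It did so for Spry2 (−2.08 to 0.11), Spred1 (−0.46 to 0.87) and Etv5 (−0.83 to 0.43) in organoids against fresh cells, and for Dusp6 (−0.24 to 0.055) and Etv4 (−0.51 to 0.72) in organoids against 12 h. The cause of these moves was not tested.

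Over the settings that keep all replicated libraries, 2 to 7 of the 15 other ERK targets and 0 to 5 of the 6 stress phosphatases were lower in organoids. With a replicated library left out these ran from 0 to 8 and from 0 to 4. Over all genes, 433 were lower in organoids with genes under a mean of 5 RPKM left out and 1009 after quantile normalization. The like counts at 12 h were 197 and 634. At 12 h, 0 to 6 targets, 0 to 3 stress phosphatases and 0 to 2 of the 11 receptors were lower, and 0 to 5, 0 and 0 to 2 with a library left out. Of the 13 other feedback inhibitors, 0 to 1 were higher and 0 to 1 lower at 12 h and 1 to 2 lower in organoids, and 0 to 1 in each case with a library left out. Of the 23 cascade genes, 0 to 1 were higher and 0 to 1 lower at 12 h and 0 to 2 lower in organoids, and 0 with a library left out.

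The replicate numbers are shared by the fresh, 12 h and organoid libraries, but nothing in the labels ties equal numbers to an animal or a day, and the deviations of same-numbered libraries correlated across genes at 0.19, 0.22 and 0.02. With the replicate number as a block, 890, 1605 and 269 genes passed, with 0, 2 and 0 of the 10, the same counts as without it. Depth limits the low genes most, and at 2 kb a count of 0 allows between 0.0527 and 0.108 RPKM.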

Other observations

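Dusp1, a phosphatase of the stress kinases, was at 6.44 RPKM in the 48h-titled library, below both organoid libraries (47.4 and 50.6) and the 24 h library (115). In the 24 h library several further pathway genes were near 0, namely Gab1 (0.0536 RPKM), Dusp7 (0.109), Dusp9 (0.0957), Dusp8 (0.0107) and Spry1 (0), each of which was higher in the other 7. Ccnd1 was at 163 RPKM in the 48h-titled library and 200 in organoid replicate 2, against 42.2 to 76.9 in the other 6. These genes were picked out after their values were seen and were not tested.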
